A study of Mus musculus with 3 samples.

Results

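The enzymes that build cholesterol and fatty acids, with the proteins that sense sterols and set the output of that pathway, were followed in mouse embryoid bodies without Hopx. The set held 30 genes, chosen by name from textbook knowledge of the pathway, out of 19802 genes tested. It comprised 18 enzymes of sterol synthesis, 6 of fatty acid synthesis, 5 genes of sterol sensing and the sterol carrier Stard4. A gene was represented by its brightest probe, and all 30 were well above background in both cultures on all 3 arrays, so none was lost to the filter on dim probes.

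Hopx-/- (null) embryoid bodies were compared with Hopx+/- (heterozygous) embryoid bodies at day 8 of cardiac differentiation. The series is titled for the role of Hopx, a homeodomain protein without DNA binding of its own, in myogenesis and commitment. The 3 replicates were 2-colour Agilent arrays, on each of which RNA from a null culture competed with RNA from a heterozygous one. Stem cells of both genotypes were derived from blastocysts on STO feeder cells and kept on inactivated embryonic fibroblasts. All embryoid bodies were formed in hanging drops with serum and then plated in StemPro-34 medium with VEGF, bFGF, FGF10 and ascorbic acid. The labels name neither the Hopx allele nor the number of stem cell lines. The p-values therefore measure the spread between these samples, and genotype and line cannot be told apart. Embryoid bodies mix many cell types, and in such bulk RNA fewer cells of a type and less RNA per cell cannot be told apart.

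Ratios are given as log2 null over heterozygous. They were turned on replicate 3, because that array, with the dyes read as labelled (Cy5 for null), correlated with replicates 1 and 2 at r = -0.903 and r = -0.901 over the probes tested, and because the authors' deposited table also holds it turned. Turning it goes against its labels, which therefore do not settle its direction: on replicate 3 the null culture below is the channel labelled heterozygous, and as labelled Hopx would be higher in the null culture there. The direction of every result rests on the labels of replicates 1 and 2. With replicate 3 as labelled, limma called 0 of the 30 genes and 0 of all genes at adjusted p under 0.05, and 0 and 61 at an unadjusted p under 0.05. Hopx itself, the check of the genotypes, stood at -2.98, -2.97 and -3.45 on the 3 arrays (mean -3.13, moderated SE 0.11, limma adjusted p = 2.8e-07). In a given channel, 61.9% to 72.9% of 43020 spots that were not controls stood well above background. Precision is limited by there being 3 arrays.

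Cholesterol is made from acetyl-CoA through mevalonate and the isoprenoid farnesyl diphosphate to squalene, which is closed into lanosterol and then trimmed and reduced. Fatty acid synthesis draws on the same acetyl-CoA. Both branches are driven by the SREBP transcription factors, which are held in the endoplasmic reticulum by Scap and the Insig proteins while sterols are plentiful and are released to the nucleus when sterols fall. Genes of the pathway therefore tend to be transcribed together, and Insig1 is itself a target of the SREBPs that closes a feedback loop. Embryos need cholesterol for membranes and for the processing of Hedgehog proteins.

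The enzymes of both branches were higher in null embryoid bodies, while the sterol sensors Insig1 and Insig2, the factor gene Srebf2 and the carrier Stard4 were lower. Of the 30 genes, 24 rose, 5 fell and 1 did not pass at adjusted p under 0.05 (limma, n = 3 arrays). Calls were common on these arrays: 30.2% of all genes tested rose and 30.1% fell, 60.3% in all. The median ratio of the 30 genes was 0.83, a 1.77-fold higher signal, against 0.00 for all genes tested. On the single arrays that median was 0.89, 0.75 and 0.91. A rise of at least 2-fold was called for 9 of the 30 genes, against 4.87% of all genes tested, and a fall of at least 2-fold for 0, against 6.03%. The 9 were Mvd, Idi1, Fdps, Sqle, Lss, Msmo1, Acaca, Fasn and Elovl6. For 29 of the 30 genes the ratio had the same sign on all 3 arrays, as it did for 76.1% of all genes measured on all 3. When arrays were centred on their medians and loess was left out, all genes shifted to a median of 0.24. In that setting 25 of the 30 genes were higher and 2 lower, and the falls of Ebp, Srebf2 and Insig2 were no longer called. At an unadjusted p under 0.05 (limma), 9257 of all 19802 genes were higher there and 3229 lower. With a t statistic computed from each probe alone, 14 of the 30 genes were higher and 0 lower after adjustment. At an unadjusted p under 0.05, 23 were higher and 4 lower. Of all 19802 genes tested, that statistic called 3998 after adjustment, and 4796 higher and 4742 lower at an unadjusted p under 0.05.

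**Figure D1:**
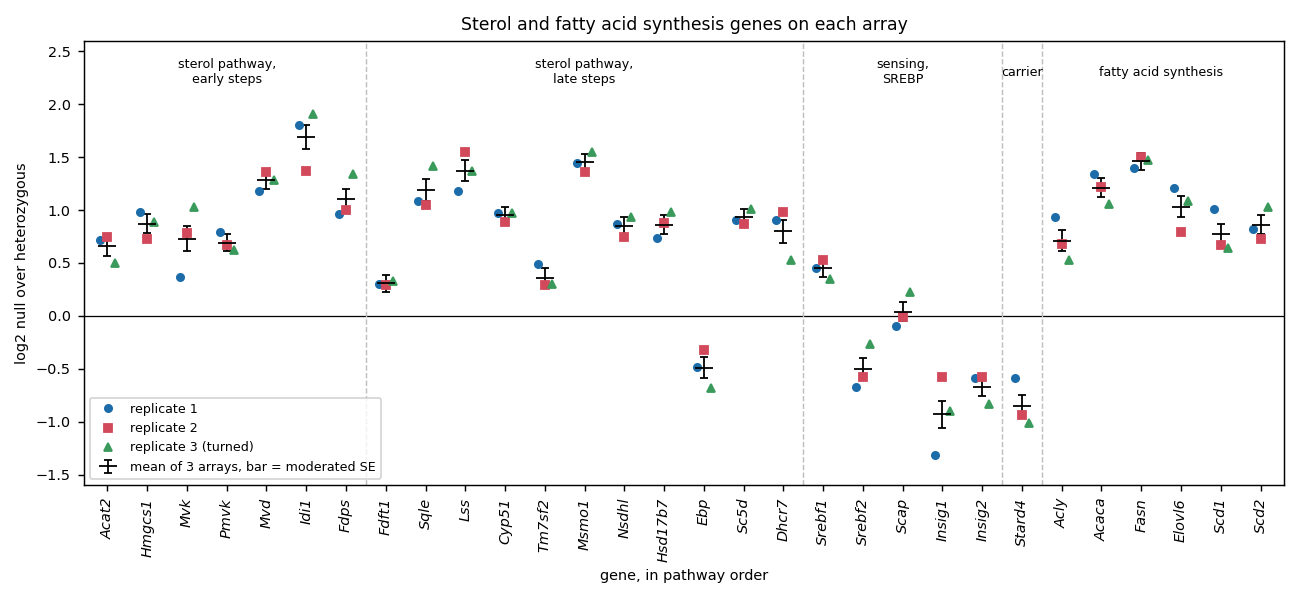
Log2 ratio of null over heterozygous (vertical axis) for the 30 genes in pathway order, with a symbol for each of the 3 arrays, the mean as a dash and the moderated SE as its bar. All 3 arrays lie above 0 for 23 of the 24 enzymes, while Ebp, Srebf2, Insig1, Insig2 and Stard4 lie below 0 on all 3 and Scap straddles it.

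The early steps, from acetyl-CoA to farnesyl diphosphate, rose without exception: 7 of 7 genes, with a median of 0.87. Idi1, which interconverts the isoprenoid building blocks isopentenyl and dimethylallyl diphosphate, had the largest ratio of the whole set. Its normalized log2 signal was 12.66, 13.11 and 13.65 in null cultures and 10.85, 11.74 and 11.73 in heterozygous ones. The null values lay above every heterozygous value, and the ratio was 1.69 (moderated SE 0.11, adjusted p = 5.7e-06), a 3.23-fold higher signal. Mvd, which makes isopentenyl diphosphate by decarboxylating its mevalonate precursor, had signals of 11.77, 11.61 and 11.52 against 10.59, 10.25 and 10.24. It rose by 1.28 (SE 0.08), with a narrow span of array ratios from 1.18 to 1.36. Fdps, which joins the building blocks into farnesyl diphosphate, stood at ratios of 0.96, 1.00 and 1.34 and rose by 1.10 (SE 0.10).

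The other early enzymes rose less. Hmgcs1, which makes HMG-CoA, had signals of 14.47, 14.52 and 14.73 in null and 13.49, 13.80 and 13.83 in heterozygous cultures. Its groups did not overlap, and it rose by 0.87 (SE 0.09, adjusted p = 5.5e-05). Acat2, the cytosolic thiolase that joins acetyl-CoA units at the start of the pathway, rose by 0.66 (SE 0.09). Pmvk, the second kinase acting on mevalonate, rose by 0.69 (SE 0.08) and by 0.64 (SE 0.08) on its other probe. Mvk, the kinase before it, rose by 0.73 (SE 0.12), with array ratios of 0.37, 0.78 and 1.03. That was the widest spread among the enzymes, an SD of 0.33 over arrays. Its other probe showed the same order of arrays, at 0.61, 0.84 and 1.27, and rose by 0.90 (SE 0.12).

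Promoters are shown for Hmgcs1, which was the only gene of the set whose window held the sterol element searched for, and for Idi1, Fasn and Insig1, chosen after their values were seen as the sterol enzyme, the fatty acid enzyme and the sensor with the largest ratios in size. Each sequence is the 250 bases before the RefSeq start site on build GRCm38.p6, 5′ to 3′ on the strand of the gene. Capitals mark the sterol element TCACNCCAC, a form of the site bound by SREBPs, and CCAAT boxes, the site of NF-Y, which binds beside SREBPs in many sterol genes. Both were searched on both strands, so that a CCAAT box on the other strand reads ATTGG.

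Hmgcs1 (chr13:119690101-119690350, plus strand): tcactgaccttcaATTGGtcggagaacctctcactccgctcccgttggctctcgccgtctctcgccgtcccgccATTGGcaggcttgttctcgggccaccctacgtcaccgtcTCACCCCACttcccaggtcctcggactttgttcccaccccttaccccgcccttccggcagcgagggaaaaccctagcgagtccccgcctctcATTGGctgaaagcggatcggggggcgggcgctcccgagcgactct

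Idi1 (chr13:8885356-8885605, plus strand): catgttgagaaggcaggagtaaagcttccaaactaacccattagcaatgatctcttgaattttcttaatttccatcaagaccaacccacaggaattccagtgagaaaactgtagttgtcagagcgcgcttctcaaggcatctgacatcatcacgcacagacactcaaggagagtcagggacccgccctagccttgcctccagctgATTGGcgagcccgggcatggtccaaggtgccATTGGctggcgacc

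Fasn (chr11:120824548-120824797, minus strand): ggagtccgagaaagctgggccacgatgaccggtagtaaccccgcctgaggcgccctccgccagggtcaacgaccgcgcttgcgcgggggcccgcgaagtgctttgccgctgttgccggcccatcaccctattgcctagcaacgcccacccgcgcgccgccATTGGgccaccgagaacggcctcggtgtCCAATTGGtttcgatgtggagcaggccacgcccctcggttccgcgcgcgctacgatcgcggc

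Insig1 (chr5:28071162-28071411, plus strand): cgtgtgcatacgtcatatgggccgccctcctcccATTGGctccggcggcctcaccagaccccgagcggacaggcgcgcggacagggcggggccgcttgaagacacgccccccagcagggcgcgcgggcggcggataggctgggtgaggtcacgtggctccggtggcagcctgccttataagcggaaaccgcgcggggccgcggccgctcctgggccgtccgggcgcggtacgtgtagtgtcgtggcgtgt

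The sterol element of Hmgcs1 ended 129 bases before the start site and read TCACCCCAC. Windows were available for 24 of the 30 genes, 32 windows in all because some genes have several start sites. The sterol element was found in 1 of the 32 windows (3.12%), against 1.05% of all 32851 windows of the same length in the table. CCAAT boxes were found in 20 of the 32 windows (62.5%), against 33.8% of all windows. The Sp1 box GGGCGG, searched on both strands as well, was found in 23 (71.9%), against 32.7%. Of these genes, 19 had a CCAAT box in at least 1 window and 20 an Sp1 box, and matches of different motifs did not overlap in any of the 32 windows. In Fasn a pair of CCAAT boxes on opposite strands shared bases. Among the genes with a CCAAT box were both rising ones such as Idi1 and Fasn and falling ones such as Insig1, Srebf2 and Ebp. These matches describe the letters only, and the windows of all genes include many of other base composition.

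Of the 11 late enzymes, from squalene to cholesterol, 10 rose and Ebp fell (median 0.86). Msmo1, which removes methyl groups from lanosterol derivatives, had signals of 15.18, 15.17 and 15.32 in null and 13.74, 13.81 and 13.78 in heterozygous cultures. The values within a genotype differed little beside the gap between genotypes, and Msmo1 rose by 1.45 (SE 0.08, adjusted p = 2.7e-06), a 2.73-fold higher signal. Lss, which closes the ring system to form lanosterol, stood at 9.15, 10.17 and 10.12 against 7.97, 8.62 and 8.75. Its signal was lower in both cultures on replicate 1, yet its array ratios were close, at 1.18, 1.55 and 1.37, and it rose by 1.37 (SE 0.10). Sqle, the epoxidase that opens this branch and is a control point of the pathway, rose by 1.19 (SE 0.10), from array ratios of 1.09, 1.05 and 1.42.

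Cyp51, which demethylates lanosterol, rose by 0.95 (SE 0.08), and Sc5d, a late desaturase, by 0.93 (SE 0.08). Their array ratios were 0.97, 0.89 and 0.97 for Cyp51 and 0.91, 0.87 and 1.01 for Sc5d. Hsd17b7 and Nsdhl, which act with Msmo1 in removing methyl groups, rose by 0.86 (SE 0.09) and 0.85 (SE 0.08). Their other probes rose less, by 0.38 (SE 0.11) for Hsd17b7 and 0.32 (SE 0.09) for Nsdhl. Dhcr7, the last reductase of a main route to cholesterol, rose by 0.80 (SE 0.11), with replicate 3 lower at 0.53 than replicates 1 and 2 at 0.91 and 0.98.

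The smallest rises of the pathway were those of Fdft1 and Tm7sf2. Fdft1, squalene synthase, which commits farnesyl diphosphate to sterols, had signals of 12.24, 12.00 and 11.90 in null and 11.93, 11.71 and 11.57 in heterozygous cultures. The groups overlapped across arrays although the ratios within arrays were nearly equal, at 0.30, 0.29 and 0.33, and it rose by 0.31 (SE 0.08, adjusted p = 0.0102). Tm7sf2, a sterol reductase, rose by 0.36 (SE 0.09) and by 0.43 (SE 0.08) on its other probe. The calls of both genes were lost in the authors' deposited value table (adjusted p = 0.278 and 0.161) and with the channels taken as separate samples, that of Fdft1 also in the processed signals (adjusted p = 0.0518), and that of Tm7sf2 also without replicate 1 (adjusted p = 0.0567).

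Ebp, the isomerase that moves a double bond in the sterol ring, was the only one of the 24 enzymes that fell. Its signals were 12.39, 12.22 and 11.94 in null and 12.87, 12.54 and 12.62 in heterozygous cultures. The null values lay below every heterozygous value, and Ebp fell by 0.49 (SE 0.10, adjusted p = 0.00214). With median centring and no loess its ratio was -0.05 (adjusted p = 0.721), or -0.29 relative to the median of all genes in that setting. In the scanner software's processed signals it was -0.53 and in the authors' deposited table -0.54.

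All 6 genes of fatty acid synthesis rose, with a median of 0.95. Fasn, the fatty acid synthase itself, had signals of 9.38, 9.24 and 9.29 in null and 7.98, 7.74 and 7.82 in heterozygous cultures. No null value came near a heterozygous one, and Fasn rose by 1.46 (SE 0.08, adjusted p = 2.2e-06), a 2.74-fold higher signal. Acaca, the acetyl-CoA carboxylase that supplies it with malonyl-CoA, stood at 12.96, 12.63 and 12.72 against 11.61, 11.41 and 11.66 and rose by 1.21 (SE 0.09). Its other tested probe, which was dim, stood at -0.20 (SE 0.08, adjusted p = 0.0685), and the mean of both probes was 0.50. Acly, which splits citrate into cytosolic acetyl-CoA for both branches, rose by 0.71 (SE 0.10), with ratios of 0.93, 0.68 and 0.53, and its dim other probe stood at -0.07 (SE 0.08), which brought the mean of both to 0.32.

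Downstream of the synthase, Elovl6, which lengthens its product palmitate, rose by 1.03 (SE 0.10), and the desaturases Scd1 and Scd2 rose by 0.77 (SE 0.10) and 0.86 (SE 0.09). The signals of Scd2 were 15.29, 15.21 and 15.41 in null and 14.47, 14.48 and 14.38 in heterozygous cultures. Those of Scd1 were 11.27, 10.75 and 11.00 against 10.26, 10.08 and 10.37. Null lay above heterozygous without overlap for both desaturases. Because they come from separate probes, the 2 genes' levels were not set against each other.

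The 5 genes of sterol sensing went both ways: 1 rose, 3 fell and 1 did not pass (median -0.50). Insig1, the anchor protein that retains the Scap complex and is induced by SREBPs, had signals of 8.22, 8.59 and 8.44 in null and 9.53, 9.17 and 9.34 in heterozygous cultures. All null values lay below all heterozygous ones. Insig1 fell by 0.93 (SE 0.13, adjusted p = 3.7e-04), the largest fall of the set, with the widest spread as well: array ratios of -1.31, -0.58 and -0.90. Insig2, a paralog with the same role that is less dependent on SREBPs, stood at 10.63, 10.45 and 10.19 against 11.22, 11.02 and 11.03. It fell by 0.67 (SE 0.09), and its other probe fell by 0.50 (SE 0.08). With median centring and no loess, Insig1 was at -0.63 (adjusted p = 0.00317) and Insig2 at -0.28 (adjusted p = 0.0603).

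The genes of the transcription factors had opposite signs. Srebf1, which encodes the SREBP forms active mainly on fatty acid genes, had signals of 7.99, 7.77 and 7.57 in null and 7.53, 7.23 and 7.22 in heterozygous cultures and rose by 0.45 (SE 0.08, adjusted p = 0.00189). The lowest null value was only slightly above the highest heterozygous one. Srebf2, which encodes the form active mainly on sterol genes, stood at 9.62, 9.57 and 9.68 against 10.29, 10.15 and 9.95 and fell by 0.50 (SE 0.10, adjusted p = 0.0024). Its other, dimmer probe was at -0.10 (SE 0.10, adjusted p = 0.394), with a positive ratio of 0.12 on replicate 3. With median centring and no loess the brighter probe was at -0.15 (adjusted p = 0.386).

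Scap, the escort that carries SREBPs to the Golgi, had signals of 11.94, 12.01 and 12.07 in null and 12.04, 12.01 and 11.84 in heterozygous cultures. The groups overlapped, and the ratio was 0.04 (95% interval from -0.17 to 0.26, adjusted p = 0.725). With median centring and no loess it was called higher at 0.47 (adjusted p = 0.00989), where the median of all genes was 0.24. The arrays measure transcripts, so cleavage of the SREBPs and their amount in the nucleus were not measured.

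Stard4, which carries cholesterol between membranes and is a known SREBP target, was lower in null cultures. Its signals were 10.49, 10.73 and 10.79 against 11.08, 11.67 and 11.79 in heterozygous cultures. The highest null value was below the lowest heterozygous one, and Stard4 fell by 0.85 (SE 0.10, adjusted p = 1.4e-04). Its dimmer probe did not follow, at ratios of 0.10, 0.24 and 0.16 (mean 0.17, adjusted p = 0.114).

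**Figure D2:**
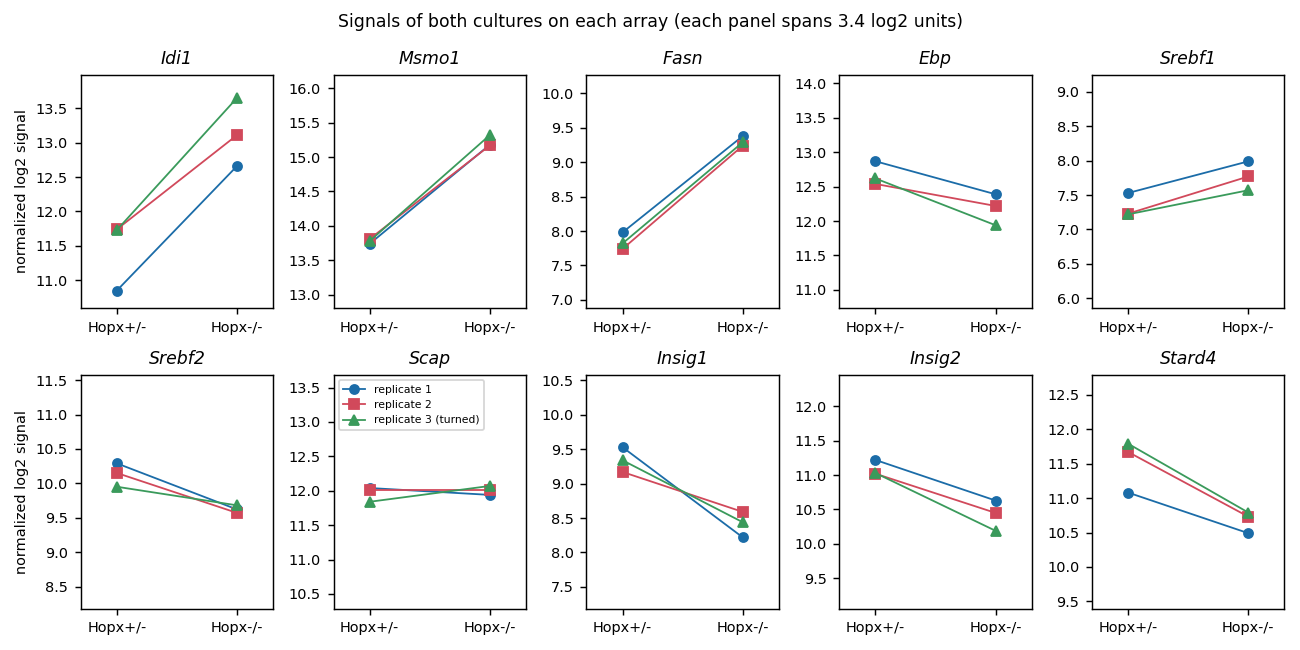
Normalized log2 signal (vertical axis) of 10 genes in heterozygous and null embryoid bodies, with a line joining the 2 cultures of each of the 3 arrays. Lines rise for Idi1, Msmo1, Fasn and Srebf1 and fall for Ebp, Srebf2, Insig1, Insig2 and Stard4, and for Scap they cross.

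Across the set the channel signals did not overlap for 23 genes with null higher and 5 with null lower, and overlapped for Fdft1 and Scap. Non-overlap in either direction was seen for 52.6% of all genes measured in all channels, and null wholly above heterozygous for 26.3%. The SD of the ratio over the 3 arrays ranged from 0.02 for Fdft1 to 0.37 for Insig1.

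Further probes of a gene had smaller ratios in most cases, whether or not they were called. For 12 of the 30 genes the array carried more than 1 probe, 13 further probes in all, of which 11 were tested. Of the 11, 8 had the direction of the brightest probe, and 6 were called, all 6 in that direction. The 5 that were not called had mean log2 intensities between 6.46 and 7.36, whereas the brightest probes of the 30 genes ranged from 7.54 to 14.87. Dim probes were also among those called: that of Nsdhl, at an intensity of 6.82, and that of Insig2, at 7.82 with a ratio of -0.50. The 3 with the opposite sign belonged to Stard4, Acly and Acaca. The dim Hmgcs1 probe was at 0.07 (SE 0.08) where the bright one was at 0.87, and the mean of both was 0.47. The files used here do not say where in the transcripts such probes lie. Averaging all tested probes of a gene lowered the median of the 30 genes to 0.66 and left 24 called higher and 5 lower.

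**Figure D3:**
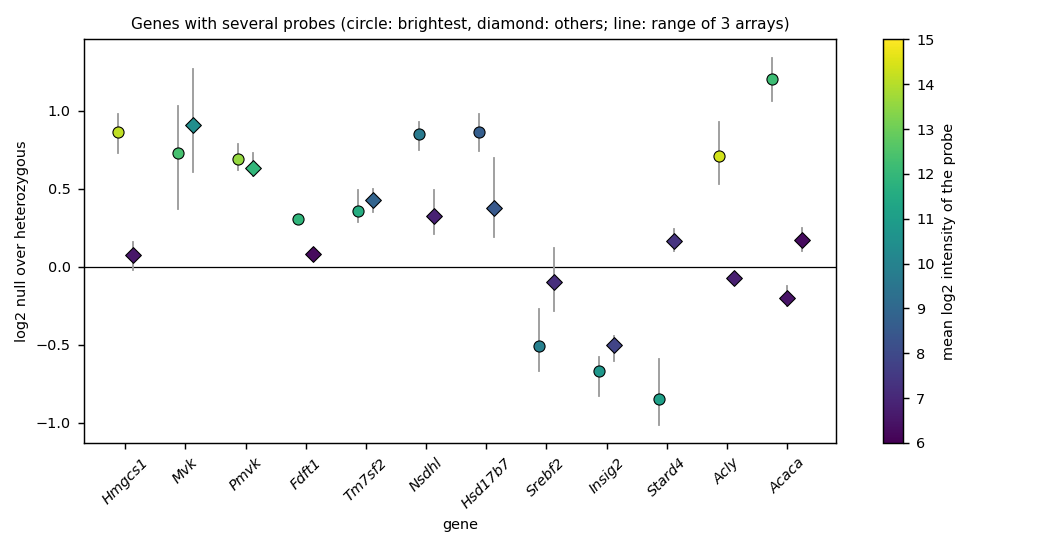
Log2 ratio of null over heterozygous (vertical axis) for the 12 genes with several probes, as the mean of 3 arrays with the range as a line, coloured by the mean log2 intensity of the probe. The dim further probes of Hmgcs1, Stard4, Acly and Acaca lie nearer to 0 than the bright probes of these genes, while the bright probes of Fdft1 and Tm7sf2, at 0.31 and 0.36, lie about as near as the dim one of Nsdhl at 0.32.

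Other lipid genes, in lists of neighbouring functions, were split between directions. Of 93 tested, 31 rose, 36 fell and 26 did not pass, with a median of -0.09. Among all genes tested 30.2% rose and 30.1% fell, so these counts, and those of several of the small lists that follow, lie near the background. With arrays centred on their medians and no loess, 41 of the 93 were higher and 17 lower after adjustment. All genes shifted upward in that setting as well, to a median of 0.24. There 9257 of all 19802 genes were higher and 3229 lower at an unadjusted p under 0.05 (limma). These 93 and the 30 synthesis genes were read from the same arrays, and the difference between the lists was not tested.

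Genes that use the products of the mevalonate steps had the median nearest to that of the enzymes. Of 8 genes for isoprenoid use and the last sterol steps, 6 rose and 1 fell (median 0.73). Pdss1 and Pdss2, the subunits that build the tail of coenzyme Q, rose by 1.14 (SE 0.09) and 0.86 (SE 0.08), and Lbr, a nuclear envelope protein with sterol reductase activity, by 0.89 (SE 0.08). Dhdds, of dolichol synthesis, was the member that fell, at -0.62 (SE 0.11).

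Of 7 genes for SREBP processing and the turnover of sterol enzymes, 4 rose and 1 fell (median 0.27). Ubxn8, an adaptor of protein degradation at the endoplasmic reticulum, rose by 0.93 (SE 0.09). The proteases that cut SREBPs moved apart, with Mbtps1 at 0.29 (SE 0.10, adjusted p = 0.0267) and Mbtps2 at -0.62 (SE 0.09, adjusted p = 4.4e-04).

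Sterol uptake, storage and export genes were mostly lower: 11 of 21 fell, 2 rose and 8 did not pass (median -0.33). Soat2 and Soat1, which esterify cholesterol for storage, fell by 2.40 (SE 0.09) and 1.82 (SE 0.08). Lrp2, an endocytic receptor of visceral endoderm and kidney, fell by 1.76 (SE 0.10), and Lipa, the lysosomal lipase that frees cholesterol from taken-up esters, by 1.29 (SE 0.09). Among genes of fatty acid supply, elongation and desaturation, 12 rose and 9 fell of 27 tested out of 30 (median 0.15). Fads1, a desaturase of polyunsaturated fatty acids, rose by 1.33 (SE 0.09) and Acsl5, an acyl-CoA synthetase, by 0.88 (SE 0.09), while Me1, which supplies NADPH, and Elovl7, an elongase, each fell by 0.85 (SE 0.11 and 0.09). Me1 was measured on 2 of the 3 arrays.

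Genes that assemble or burn fatty acids went both ways, again beside 30.2% of all genes that rose and 30.1% that fell. Of 16 glycerolipid genes, 3 rose and 7 fell (median -0.06), among them Agpat4, an acyltransferase, at -1.23 (SE 0.10), and Dgat2, which makes triglyceride, at -1.09 (SE 0.08). Of 14 genes of fatty acid uptake and oxidation, 4 rose and 7 fell (median -0.29). Fabp3, the fatty acid carrier of heart muscle, fell by 2.89 (SE 0.11) and Acadvl, of mitochondrial oxidation, by 1.24 (SE 0.09), while Lpl, which frees fatty acids from lipoproteins, rose by 0.76 (SE 0.11) and Cpt1a, which admits them to mitochondria, by 0.73 (SE 0.08).

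**Figure D4:**
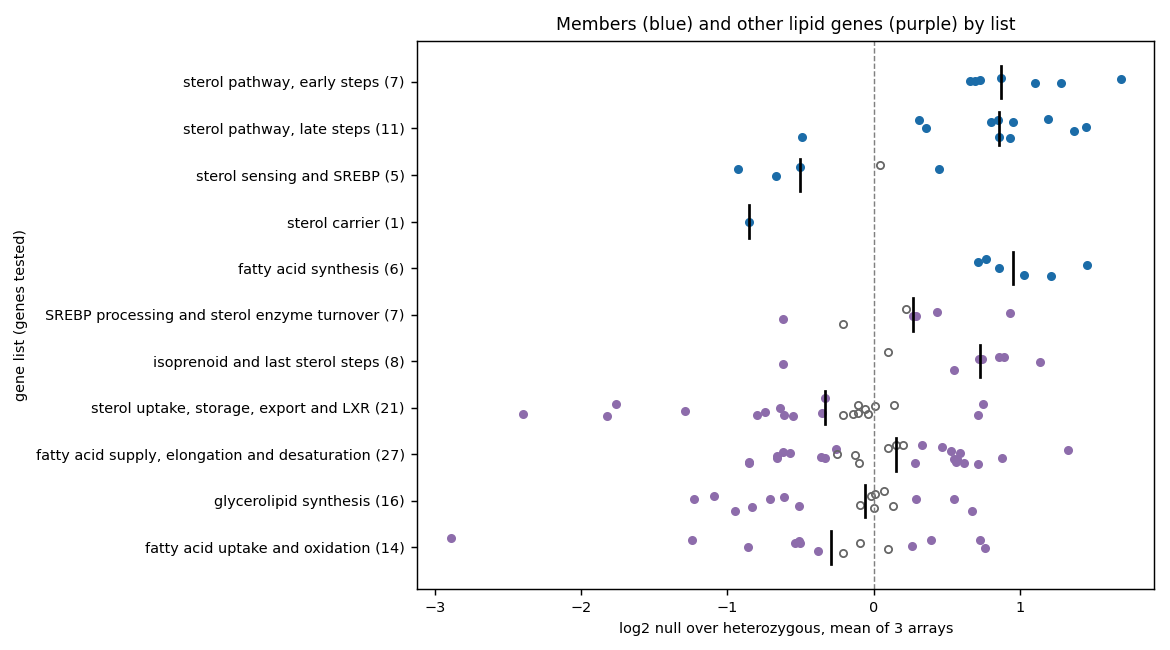
Log2 ratio of null over heterozygous (horizontal axis, mean of the 3 arrays, or of 2 for Me1 and Acadl) of each gene tested, by list, with the number tested in brackets. Filled points passed the test, open points did not, vertical bars are list medians and the dashed line is the median of all genes, and the 3 lists of synthesis enzymes have medians of 0.87, 0.86 and 0.95.

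Markers of several cell types differed between the cultures as well, beside 30.2% of all genes tested that rose and 30.1% that fell. All 13 visceral endoderm markers and all 9 cardiomyocyte markers fell. The summed signal of the 13, in normalized linear intensity units, ranged from 26022 to 34503 in null and from 160218 to 192421 in heterozygous cultures, and that of 8 cardiomyocyte markers measured in every channel from 23492 to 33460 against 215906 to 268356. Of 7 pluripotency markers 6 rose (23674 to 27666 against 14217 to 17834), as did 6 of 6 blood markers (83376 to 113268 against 25208 to 44397), all 4 neural markers tested of 5 (3806 to 5009 against 864 to 982) and 5 of 7 fibroblast and feeder markers. The last list summed to 44883 to 70997 against 22253 to 33941 over the 5 markers measured in every channel, which leave out Postn, which rose, and Col1a1, and include Fbln1, which fell by 1.60. Hbb-bh1, the brightest blood marker, had 1 saturated spot, so the sums of the blood list are not exact. No marker tested was below background throughout a culture. The summed signal of the 30 synthesis genes ranged from 224837 to 246708 in null and from 129791 to 132163 in heterozygous cultures. The part of these cell types in the results on lipid genes was not tested.

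**Figure D5:**
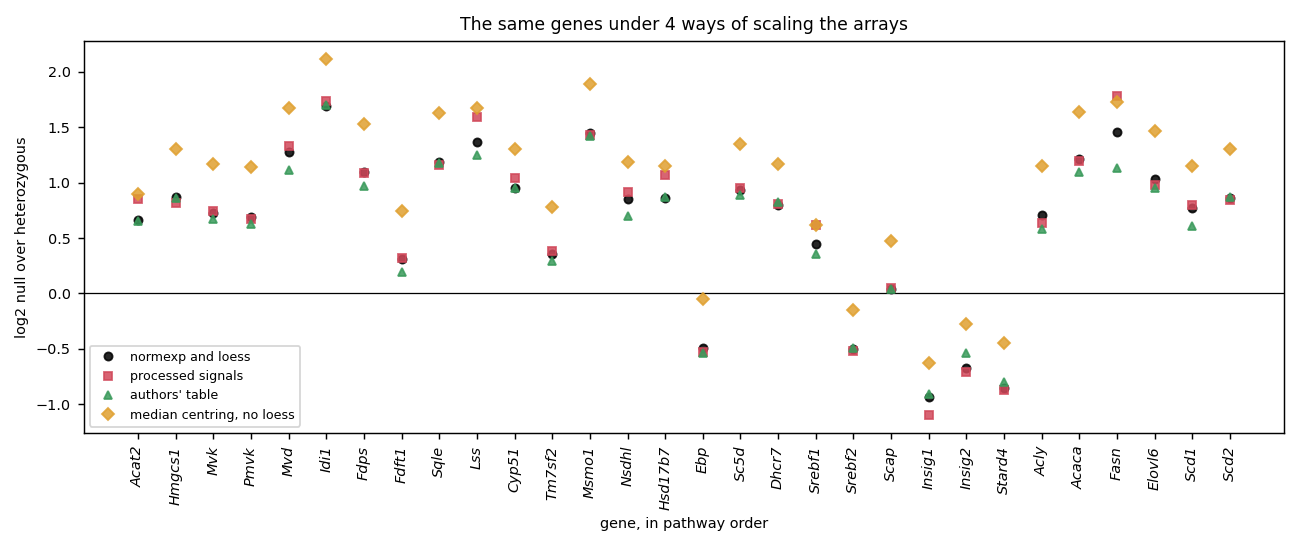
Log2 ratio of null over heterozygous (vertical axis) of the 30 genes under 4 ways of scaling the arrays, with a symbol for each. Median centring without loess lies above the others for nearly all genes, and Ebp moves from -0.49 to -0.05, while Insig1 and Stard4 stay below 0 in all 4.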

How the data were processed

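The members and gene lists were chosen with earlier results of these data known. The authors deposited spot intensity values. Their software was Agilent Feature Extraction, of version 11.5.1.1 per the file headers and 8.5.1.1 per the submitters' processing notes. The authors also deposited a table without a stated scale, read here as log2 ratios. The median of the 30 genes was 0.77 in it, near the 0.83 of the main fit. Its values correlated with the scanner log2 ratios at r from 0.867 to 0.929 with replicate 3 turned, but a correlation does not depend on scale. Its columns have medians of -0.10, -0.11 and 0.07, and how it was centred is unknown.

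With limma 3.58.1 in R 4.3.3, median foregrounds were corrected by normexp (offset 50) and normalized by loess within arrays, with control and outlier spots at weight 0. Spots of a probe were averaged. Probes well above background on all 3 arrays in the null or the heterozygous channel were kept, 24552 of 39429. Each ratio was tested against 0 (lmFit, eBayes, two-sided, Benjamini-Hochberg over the probes kept). Channel signals were also scaled between arrays by Aquantile. SEs are moderated. Probes were named through RefSeq accessions, 28025 of 39429 (71.1%). The array design is on mm9, so coordinates come only with the RefSeq promoters. All 30 genes are named, and up to 4 called genes of each other list by size of change. The fit was tested on simulated data. With 2 arrays in one dye orientation and 1 in the other, a dye effect does not cancel fully. All arrays share a slide, so slide could not be a block.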

Additional observations from a re-analysis of the deposited data

How the results depend on the processing

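The direction of every one of the 30 genes with a call held under all 16 alternatives, but several of these could not change a direction. The ordinary t statistic, the 2-fold minimum, the separate channels and the filters on dim probes left the ratios as they were. Leaving out a replicate could not turn a called gene, since each had the same sign on all 3 arrays. The alternatives were written down before this fit but with earlier results known. The causes of the changes below were not tested unless the construction shows them. With replicate 3 as labelled, a single array of opposite sign left 0 genes higher, 0 lower and 0 calls kept, the median at 0.25, and 0 and 0 other lipid genes higher and lower. The ordinary t statistic gave 14 higher, 0 lower and 14 calls kept of 29, with 16 other lipid genes higher and 15 lower. It called 3998 of all 19802 genes after adjustment. Asking for at least 2-fold left, by construction, 9 higher, 0 lower and 9 kept, with 2 and 8 other lipid genes. Median centring without loess gave 25 higher and 2 lower, 41 other lipid genes higher and 17 lower, and a median of 1.17. All genes had a median of 0.24 in that setting. Averaging probes gave a median of 0.66. Without any one replicate, 23 or 24 genes were higher and 5 lower. Treating each channel as its own sample, with no replicate block for the array, left 22 genes higher and 5 lower: Fdft1 (adjusted p = 0.115) and Tm7sf2 (adjusted p = 0.0739) lost their calls. A dye effect as a second term changed no call among the 30 genes and left 33 other lipid genes higher in place of 31. The part of signal over background in the smaller ratios of dim probes was not tested.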
